A study of Saccharomyces cerevisiae with 167 samples.

Results

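Eisosomes are furrows of the fungal plasma membrane held in shape by Pil1 and Lsp1, BAR domain proteins that coat the inner face of the membrane. Above the furrow lies a membrane compartment populated by the Sur7 family, tetraspan proteins that in budding yeast comprise Sur7, Fmp45, Ynl194c and Pun1. The compartment shelters nutrient transporters from endocytosis and takes part in the sensing of membrane stress and sphingolipids. The data described here are those of the 6 genes FMP45 (YDL222C), SUR7 (YML052W), YNL194C, PUN1 (YLR414C), PIL1 (YGR086C) and LSP1 (YPL004C) of Saccharomyces cerevisiae. They were taken by name, with no measured value in the rule. Each gene contributed its ORF probe and the intergenic probe on its 5′ side, which made 12 probes of the 13029 on the array, 6 of 6269 ORF probes and 6 of 6378 intergenic ones.

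All values are log2 ratios of the Cy5 to the Cy3 channel of 2-colour arrays, here centred so that the median probe of each array is 0. Of the 167 arrays, 3 set total RNA of heat-shocked against unstressed cells and 3 that of stationary against log-phase cells. On 3 arrays each, chromatin carrying histone H4 and chromatin carrying acetylated H4 were compared in the same direct way (39°C against 30°C, and stationary against log phase). Myc-tagged H4 was pulled down through its tag, and the acetylated form through an antibody of its own, except that for the direct stationary arrays of acetylated H4 the labels name the tag antibody. The same material was also set against sonicated genomic DNA, and acetylated H4 against H4, with 3 arrays per state. Snf2, which drives SWI/SNF nucleosome remodelling by ATP hydrolysis, was Myc-tagged and set against input DNA on 3 arrays from 30°C and 5 after heat shock. Time courses after heat shock compared wild-type with snf2 deletion cells: 13 arrays of poly(A) RNA, with RNA of wild-type cells without stress as the control channel (0, 30, 60, 300 and 900 s), 40 of H4 and 39 of acetylated H4 against genomic DNA (codes T0 to T900, which carry no unit). A further 13 total RNA arrays, 1 per comparison, held strains deleted for SNF2, CHD1, ISW1 or ISW2, each a chromatin remodelling ATPase gene, and their wild type. The parent strain and the clones are not named in the labels, nor are separate cultures, so that p-values measure the spread between arrays, which may be technical.

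The deleted genes were checked first. On the deletion against wild-type arrays the probe of the deleted gene was at -0.40 and -1.34 for SNF2 (unstressed and 39°C), at -2.89 and -0.44 for CHD1, at -2.45 and -2.09 for ISW1, and at -2.04 and -1.71 for ISW2. In the H4 time course the SNF2 ORF probe lay between -2.80 and -0.85 on deletion arrays and between -0.12 and 0.42 on wild-type arrays, without overlap. In the poly(A) RNA course it lay between -0.64 and 0.02 on the arrays labelled snf2 deletion and between -0.34 and 0.67 on wild-type arrays, so the groups overlapped and the probe did not tell these arrays apart. In the acetylated H4 course sets 2 and 3 of the deletion are labelled with genomic DNA of the deletion strain as reference, in which neither channel would hold SNF2. There the SNF2 probe averaged -2.33 and -2.76, below the -1.54 of set 1 with wild-type DNA. Wild-type arrays were also lower in sets 2 and 3 (-1.10 and -1.24) than in set 1 (-0.46), so the sets differed in both strains. The deletion mean lay below the wild-type mean in sets 2 and 3 too, which goes against the labelled reference.

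The intergenic probes of FMP45, SUR7, YNL194C and LSP1 lie between divergent genes and are shared with the promoters of YDL221W, YML053C, YNL193W and ULA1 (YPL003W). Those of PUN1 and PIL1 lie between genes on the same strand, beyond the ends of YLR415C and PDC6 (YGR087C), and a non-coding RNA gene is annotated between PIL1 and PDC6. YDL221W is on the array but not in the annotation used, in which the next gene is CDC13. Because the files give no coordinates or genome build, no positions are given.

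Heat shock changed the mRNA of the family in both directions. On the 3 direct arrays PUN1, PIL1 and LSP1 rose, SUR7 and YNL194C fell, and FMP45 did not pass the test, so 5 of the 6 genes were called by limma (Benjamini-Hochberg adjusted p under 0.05 over all ORF probes). Over all ORF probes 34.5% were called, 1038 higher and 1126 lower. Each value is an average over a culture, so that fewer cells expressing a gene and less RNA per cell cannot be told apart. In this comparison limma used 1 spread for all genes (SE 0.19 for each member), which is why the array values are given first.

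SUR7, which encodes the founding member of the tetraspan family, was at -0.86, -0.56 and -1.12 on the 3 arrays. All 3 arrays were low, and the mean of -0.85 ± 0.28 (SD, n = 3, adjusted p = 4.48e-05) was a 1.80-fold fall. YNL194C, a paralog needed for normal sphingolipid content, was at -0.42, -1.19 and -0.16. Its mean of -0.59 ± 0.54 (adjusted p = 0.00722) rests on the second array: without it the mean was -0.29 (adjusted p = 0.117), without the first array -0.67 (adjusted p = 0.0663), and without centring -0.57 (adjusted p = 0.0696). FMP45, whose product is a close relative of Ynl194c, was at -0.06, -0.67 and -0.35. Its mean of -0.36 ± 0.31 did not pass (adjusted p = 0.133). PUN1, which encodes the family member known for a role in cell wall integrity and nitrogen stress, was at 0.65, 1.06 and 0.51 and rose 1.67-fold (0.74 ± 0.29, adjusted p = 0.000479).

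The genes of both structural proteins rose. LSP1 was at 1.06, 1.01 and 0.89, the narrowest spread of the 6 genes, and rose 1.98-fold (0.99 ± 0.09, adjusted p = 1.39e-06). PIL1, without which eisosomes collapse into a few remnants, was at 0.60, 0.86 and 0.47 and rose 1.56-fold (0.64 ± 0.20, adjusted p = 0.00294). Its call was lost without the first array, where the mean was 0.66 and the adjusted p 0.0725. Of the genes across the shared probes, ULA1 (0.65 ± 0.34, adjusted p = 0.00249) and PDC6 (0.46 ± 0.34, adjusted p = 0.0449) rose as well, and the other 4 did not pass, with means between -0.31 and 0.15. Pil1 and Lsp1 are paralogs, as are the Sur7 family members, and whether related sequences share signal on these probes was not tested.

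**Figure D1:**
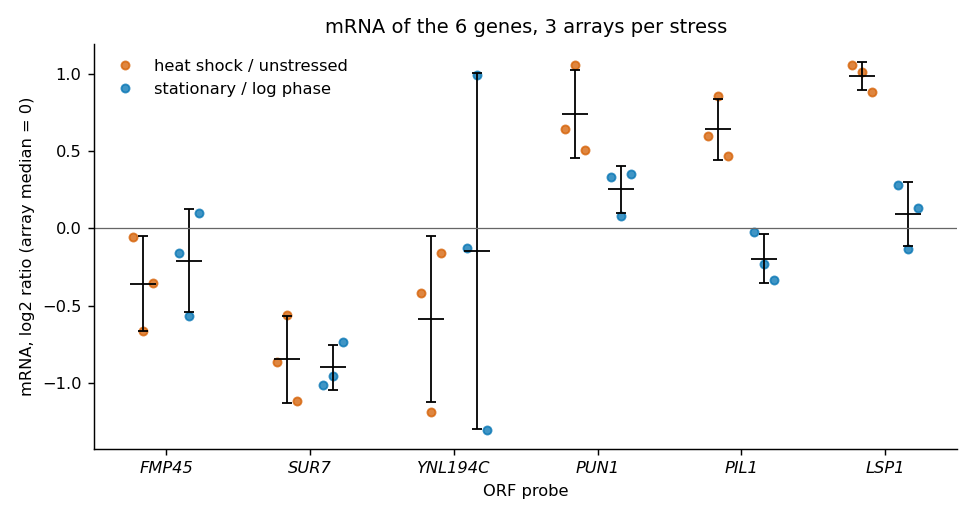
The plot shows the log2 ratio of mRNA for each of the 6 ORF probes, with 1 point per array, the bar at the mean and whiskers of 1 SD (n = 3), for heat shock over unstressed cells and stationary over log phase. LSP1, PIL1 and PUN1 sit above 0 on every heat shock array, SUR7 sits below 0 on all 6 arrays, and YNL194C spreads from -1.31 to 1.00 in stationary phase.

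The time course placed the called changes after 60 s and gave a different picture of FMP45. In wild-type cells FMP45 was at 0.20 and 0.37 before heat shock, 0.40 at 30 s, 0.36 at 60 s, 2.95 at 300 s, and 3.55 and 3.85 at 900 s. The level was flat up to 60 s and stood 6.34-fold above its start at 300 s and 10.7-fold at 900 s (F test over the 4 later times, adjusted p = 0.000175). LSP1 was at 0.22 and 0.34, then 0.22, 0.17, 1.99, and 1.57 and 1.59 at the same times. It was 3.26-fold above its start at 300 s and 2.46-fold at 900 s (adjusted p = 0.00169). PIL1 was at 0.73 and 0.63, then 0.72, 0.77, 1.80, and 1.50 and 1.23, so it was 2.18-fold above its start at 300 s and 1.61-fold at 900 s. Its adjusted p was 0.0393, but 0.756 when arrays were scaled to 1 spread. Over all ORF probes 20.9% were called in wild-type cells, against 3 of the 6 genes. SUR7 was at 0.21 and 0.20 before heat shock, 0.51 at 300 s, and -0.39 and -0.60 at 900 s (adjusted p = 0.058). PUN1 reached 0.77 and 0.99 at 900 s from -0.04 and 0.28 (adjusted p = 0.0822), and YNL194C stayed between -0.13 and 0.63 (adjusted p = 0.462). Set numbers exist only before heat shock and at 900 s. The difference between these times alone, with the set as a block, passed also for SUR7 at -0.70 (adjusted p = 0.0236) and PUN1 at 0.76 (adjusted p = 0.015). For times with a lone array, the spread was borrowed from the duplicated times.

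On the arrays labelled snf2 deletion FMP45 was at 0.07 and 0.11 before heat shock, 0.06 at 30 s, 0.04 at 60 s, 0.59 at 300 s and 1.38 at 900 s. The level rose 2.44-fold by 900 s (F test, adjusted p = 0.0463, but 0.051 without centring and 0.256 with scaled arrays). LSP1 was at -0.34 and -0.19 at the start, 0.94 at 300 s and 0.65 at 900 s (adjusted p = 0.0395, 0.192 with scaled arrays). These were the 2 of 6 genes called, against 7.82% of ORF probes. PIL1 was at 0.96 and 0.66, then 1.42 at 300 s and 0.84 at 900 s (adjusted p = 0.331). For SUR7, YNL194C and PUN1 the adjusted p was 0.203, 0.231 and 0.735.

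The strains were compared by the difference of their changes from the start. Over all 4 later times no ORF probe passed (0%, limma, 804 of 6262 at an unadjusted p under 0.05, among them 2 of the 6 genes), and FMP45 had an adjusted p of 0.118. At single times, an alternative chosen after the data were seen, the FMP45 change in the deletion minus that in wild type was -2.17 at 300 s (adjusted p = 0.0722, 0.016% of ORF probes called). At 900 s it was -2.13 (adjusted p = 0.0495, 0.271% called), with 1 array of the deletion against 2 of wild type. None of the other 5 genes passed at either time. Before heat shock the strains differed at 6.34% of ORF probes and at 0 of the 6 genes, 2 of which had an unadjusted p under 0.05. The deletion minus wild-type difference was -0.54 for LSP1 (adjusted p = 0.0959, and -0.70 with adjusted p = 0.0431 with scaled arrays), and 0.49 for PUN1 (adjusted p = 0.205).

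**Figure D2:**
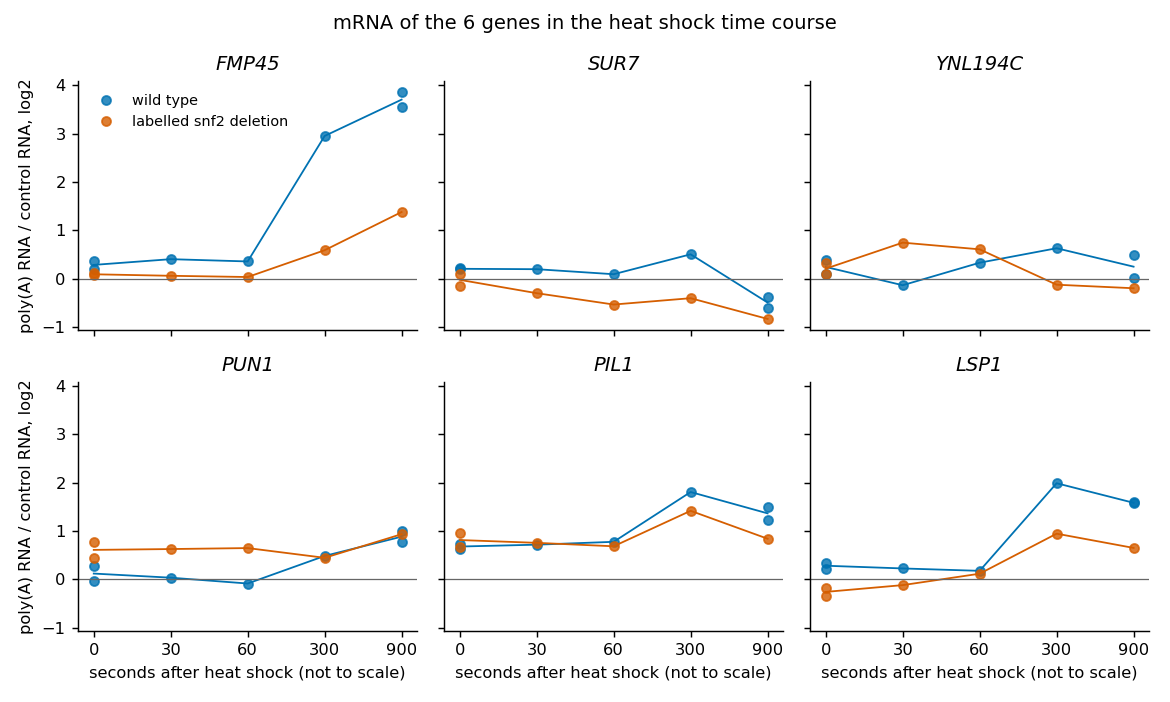
The panels plot the log2 ratio of poly(A) RNA to control RNA for the 6 ORF probes at 0, 30, 60, 300 and 900 s of heat shock, with 1 point per array and lines through the means (x axis not to scale). Wild-type FMP45 climbs from 0.36 at 60 s to 2.95 at 300 s, whereas the arrays labelled snf2 deletion reach 1.38 at 900 s, and LSP1 and PIL1 peak at 300 s in both strains.

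FMP45 thus differed between the expression arrays of heat shock. The mean of the direct arrays was -0.36, which was not called. The wild-type array of 39°C against 30°C gave 2.05, and the change from the start of the time course was 3.42 at 900 s. Across 6262 ORF probes the direct mean correlated with the single array at r = 0.77 and with the time course change at r = 0.81 (Spearman 0.62 and 0.65), as a description across genes. Of 59 ORF probes at 2 or more on both the single array and the 900 s change, FMP45 was the 1 with a direct mean below 0, and the median direct mean of the 59 was 2.79. That threshold was chosen after the values were seen. For the other genes the 3 data sets gave, in the same order, -0.85, -0.87 and -0.70 for SUR7 and 0.99, 1.13 and 1.30 for LSP1. PUN1 gave 0.74, 0.26 and 0.76, PIL1 0.64, 0.21 and 0.69, and YNL194C -0.59, -0.64 and 0.01. The direct arrays and the single array used total RNA, and the time course used poly(A) RNA. Whether the RNA preparation plays a part was not tested.

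The single arrays of the remodeller deletions had no replicates, so their values carry no test. FMP45 was the member with the widest range. On the arrays of 39°C against 30°C it stood at 2.05 in wild type, 1.34 in the snf2 deletion, 3.52 in the chd1 deletion, 2.75 in the isw1 deletion and 4.23 in the isw2 deletion. Between 0.0957% and 2.30% of ORF probes were higher than FMP45 on these 5 arrays. Against heat-shocked wild type it was at 2.36, 2.42 and 2.12 in the chd1, isw1 and isw2 deletions and at -0.23 in the snf2 deletion. In unstressed cells the 4 deletions gave 0.81, 1.57, 0.45 and 1.39 in the same order. Adding the wild-type heat value to the deletion against wild-type value at 39°C and subtracting that of unstressed cells gave 3.59, 2.89 and 3.72 for FMP45 in the chd1, isw1 and isw2 deletions, within 0.51 of the arrays that measured it directly. For snf2 the sum was 0.42 against 1.34 measured, and over all ORF probes the median gap for snf2 was 0.50.

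SUR7 was below the median in heat shock on all 5 of these arrays, from -1.67 in the chd1 deletion to -0.79 in the snf2 deletion, with -0.87 in wild type. LSP1 was at 1.13 in wild type, 1.25 in the isw2 and 0.82 in the isw1 deletion, but at 0.32 in the snf2 and -0.11 in the chd1 deletion (0.11 without centring). In unstressed cells LSP1 was higher in each deletion than in wild type, at 1.46 (snf2), 2.09 (chd1), 1.35 (isw1) and 1.26 (isw2). PIL1 was higher there too, at 1.65, 1.42, 0.69 and 0.86 in the same order, whereas in the time course the snf2 deletion minus wild-type difference before heat shock was 0.13 for PIL1 and -0.54 for LSP1, with neither called. PUN1 ranged from -1.19 (chd1) to 0.26 (wild type) in heat shock. For YNL194C the sums and the direct arrays differed by 0.68 to 1.71 in the 4 deletions, against median gaps over all ORF probes of 0.30 to 0.50, so its single arrays were less concordant among themselves than those of the median probe.

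In stationary phase 1 of the 6 genes changed, against 35.3% of all ORF probes. SUR7 was at -1.02, -0.95 and -0.73 and fell 1.87-fold (-0.90 ± 0.15, SD, n = 3, adjusted p = 0.00206). FMP45 was at -0.16, -0.57 and 0.10 (adjusted p = 0.396), PIL1 at -0.03, -0.23 and -0.33 (adjusted p = 0.368), and LSP1 at 0.28, -0.13 and 0.13 (adjusted p = 0.698). PUN1 was at 0.33, 0.08 and 0.35 (adjusted p = 0.24). YNL194C, at -0.13, 1.00 and -1.31, gave no direction.

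Other genes of the eisosome were taken from a list of 20, of which none is a member. On the direct heat shock arrays 5 of the 20 rose and 0 fell (25%, below the 34.5% of all ORF probes), with a list median of 0.16 against -0.03 for all ORF probes. RFS1, which encodes a flavodoxin-like protein of the eisosome, rose by 1.40 ± 0.26, and MSC3, which encodes another eisosome protein, rose by 0.99 ± 0.23. YGR130C, which encodes an eisosome component, rose by 0.73 ± 0.21, and FHN1, a paralog of NCE102, rose by 0.70 ± 0.24. In the wild-type time course 5 of 20 were called (25%, against 20.9% of all ORF probes), all with a positive mean difference. RFS1 was 1.70 above its start at 900 s. At 300 and 900 s FHN1 was 1.21 and 0.79 above its start, PST2, which encodes another flavodoxin-like protein, 0.80 and 0.90, and MSC3 0.98 and 0.48. On the arrays labelled snf2 deletion 1 of 20 was called (5% against 7.82%), RFS1 (1.14 at 300 s and 1.08 at 900 s, adjusted p = 0.0452), and no list gene passed for the strain difference (0 of 20 by limma, 1 at an unadjusted p under 0.05). In stationary phase 3 of 20 rose and 1 fell (20% against 35.3%), with a median of 0.10. The methionine permease gene MUP1 rose by 1.38 ± 0.05, MSC3 by 0.96 ± 0.14 and YGR130C by 0.57 ± 0.44, and NCE102, whose product is a sphingolipid sensor needed for furrow formation, fell by 0.58. Before heat shock the arrays labelled snf2 deletion had less TAT2 (tryptophan permease, -1.15, adjusted p = 0.0116) and more LYP1 (lysine permease, 0.92, adjusted p = 0.0341) than wild type.

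Sphingolipids, which signal to eisosomes through the Pkh kinases, were followed by a list of 27 genes, 26 of them on the array. On the direct heat shock arrays 6 rose and 5 fell (42.3%, against 34.5% of all ORF probes), with a median of 0.01. The ceramidase genes YPC1 (1.29 ± 0.14) and YDC1 (1.16 ± 0.33) rose. AUR1, which encodes inositol phosphorylceramide synthase (-1.08 ± 0.48), and SUR2, the sphinganine hydroxylase gene (-1.07 ± 0.30), fell. The wild-type time course called 7 of 26 (26.9% against 20.9%), with YPC1 2.20 above its start at 300 s, ORM2, a regulator of serine palmitoyltransferase, 1.36 above, YDC1 1.10 above and AUR1 at -1.37. On the arrays labelled snf2 deletion 2 of 26 were called (7.69% against 7.82%), YPC1 (1.41 at 300 s) and ISC1 (2.71 at 300 s), the gene of a phospholipase C acting on inositol sphingolipids. For the strain difference 0 of 26 passed, and 0 of 26 before heat shock (limma, 2 and 4 at an unadjusted p under 0.05). In stationary phase 3 rose and 6 fell (34.6% against 35.3%), with a median of 0.08. SUR1, which acts in mannosylation of inositol phosphorylceramide, rose by 1.06 ± 0.50 and the ceramide hydroxylase gene SCS7 by 0.81 ± 0.25, while ORM1 (-1.04 ± 0.21) and AUR1 (-1.02 ± 0.23) fell. The lists were drawn up with results of these data known and are described by their counts alone.

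Across the 32 expression arrays the ORF probes nearest to each member in profile were picked by Pearson correlation, as a description over arrays that share controls and strains. For FMP45 they were RTN2 (r = 0.92), DIA3 (0.81) and HBT1 (0.81), of which HBT1 is the neighbour of FMP45 on chromosome IV. For SUR7 they were VMA2 (0.93), PMI40 (0.93) and TUB1 (0.92). LSP1 was nearest to BCY1 (0.91), YPC1 of the sphingolipid list (0.91) and MCR1 (0.88). PIL1 was nearest to PTM1 (0.86), YCP4 of the eisosome list (0.85) and GOS1 (0.85), and PUN1 to BNA6 (0.87), SNA3 (0.84) and TSA1 (0.80). The values for YNL194C were lower, with MLP2 (0.61), DNF1 (0.60) and CSI2 (0.56). Among the members PIL1 and LSP1 had r = 0.59, PIL1 and SUR7 0.58, PIL1 and PUN1 0.58, and FMP45 and LSP1 0.49, while FMP45 and its relative YNL194C had 0.04.

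In unstressed chromatin the PIL1 ORF stood lowest of the 6 for acetylated H4, at 30°C and in log phase. Over the PIL1 ORF, H4 against genomic DNA at 30°C was -0.46 ± 0.07 (SD, n = 3) and acetylated H4 was -1.38 ± 0.13, a level below that of 98.9% of ORF probes. Acetylated H4 per H4 was -1.03 ± 0.01 there. The LSP1 ORF gave -0.33 ± 0.23, -0.79 ± 0.12 and -0.83 ± 0.14 for the same measures, and 93.5% of ORF probes had more acetylated H4. The log phase arrays gave acetylated H4 of -1.24 ± 0.28 for PIL1 and -0.36 ± 0.23 for LSP1. At 30°C the ORFs of FMP45 (0.12 ± 0.35), SUR7 (-0.02 ± 0.15) and YNL194C (0.03 ± 0.16) lay near the median for acetylated H4, and PUN1 (-0.53 ± 0.06) lay between. FMP45, YNL194C and SUR7 did not differ there beyond their spread. In log phase YNL194C was at -0.70 ± 0.39 and PUN1 at -0.69 ± 0.52, so the LSP1 ORF was not below them.

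At the 5′ probes the order of H4 at 30°C was FMP45 (0.34 ± 0.16), YNL194C (-0.02 ± 0.09), LSP1 (-0.19 ± 0.11), PUN1 (-0.22 ± 0.15), SUR7 (-0.48 ± 0.08) and PIL1 (-0.56 ± 0.08). The FMP45 probe held more H4 than all but 3.94% of intergenic probes, and the PIL1 probe less than 93.0%. YNL194C and LSP1 did not differ beyond their spread, nor did LSP1 and PUN1, nor SUR7 and PIL1. Acetylated H4 put FMP45 (0.38 ± 0.20) at the top and PIL1 (-0.76 ± 0.22) at the bottom too. In log phase FMP45 (0.21 ± 0.34) was again the highest for H4. LSP1 and YNL194C (-0.10 ± 0.11 and -0.10 ± 0.13) and PIL1 (-0.31 ± 0.13) followed, and PUN1 (-0.46 ± 0.30) and SUR7 (-0.47 ± 0.06), not PIL1, were the lowest. Acetylated H4 in log phase was highest at FMP45 (0.60 ± 0.33) and lowest at PIL1 (-0.91 ± 0.38).

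In heat shock H4 fell at the 5′ probes of FMP45 and YNL194C. On the direct arrays the FMP45 probe was at -1.01, -1.03 and -0.70, a 1.89-fold fall (-0.92 ± 0.19, SD, n = 3, adjusted p = 0.000939). The YNL194C probe was at -0.80, -0.71 and -0.78 and fell 1.70-fold (-0.76 ± 0.05, adjusted p = 0.000548). These values were low on every array, and 99.2% and 98.9% of intergenic probes had higher means. Neither YDL221W nor YNL193W, which share these probes, was called for mRNA (0.15 and -0.12 on the direct heat arrays). On the same arrays FMP45 was not called either (-0.36), and YNL194C fell (-0.59). To which gene of a shared probe the H4 change belongs was not tested. The PIL1 probe was at -0.61, -0.20 and -0.15 (adjusted p = 0.0525, but 0.0455 with robust eBayes and 0.0198 without the third array), and the probes of SUR7 (0.16), PUN1 (0.11) and LSP1 (-0.08) did not pass.

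Over ORFs, H4 fell at LSP1, which was at -0.42, -0.56 and -0.26 (-0.42 ± 0.15, adjusted p = 0.0117), and at FMP45 (-0.24 ± 0.11, adjusted p = 0.0431). The FMP45 ORF passed in none of the fits that left out 1 array (adjusted p up to 0.196), nor without centring. The LSP1 call was lost without the second array (adjusted p = 0.0536). In all 4 of the 12 probes were called, where 21.6% of all probes were. The PIL1 ORF was at -0.64, -0.44 and 0.04 (adjusted p = 0.0815), and without the third array, which stood apart, it was at -0.54 (adjusted p = 0.00281). That array also decided the YNL194C ORF, at -0.42, -0.48 and 0.01 (adjusted p = 0.0717, and 0.0034 without it).

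Acetylated H4 fell at the same pair of 5′ probes. FMP45 was at -0.70, -1.07 and -0.78 (-0.85 ± 0.20, adjusted p = 0.00187), and YNL194C at -0.84, -0.94 and -1.05 (-0.95 ± 0.10, adjusted p = 0.000918). Over ORFs it fell at YNL194C (-0.57 ± 0.16, adjusted p = 0.00673), FMP45 (-0.40 ± 0.03, adjusted p = 0.0148) and PIL1 (-0.41 ± 0.32, adjusted p = 0.0444), and it rose at PUN1 (0.34 ± 0.05, adjusted p = 0.0277). Thus 6 of the 12 probes were called, against 26.5% of all probes. The PIL1 call was lost without the second array (adjusted p = 0.0751) and without centring (0.0514). The PUN1 call was lost without array 1 or array 3 (0.119 and 0.142), and the FMP45 ORF call without the first (0.066). The SUR7 ORF, at 0.47, -0.20 and 0.36, passed without its second array (adjusted p = 0.00905). The LSP1 ORF (-0.30 ± 0.19, adjusted p = 0.0616) passed without the second array (0.0186) and with scaled arrays (0.0439).

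**Figure D3:**
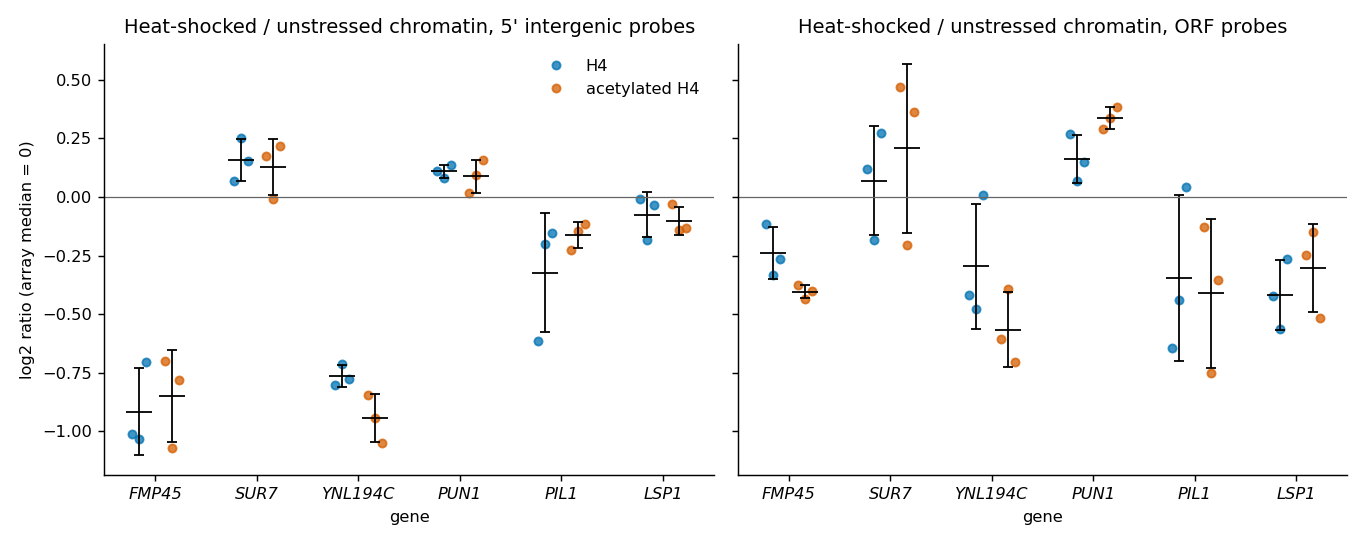
The panels show log2 ratios of heat-shocked over unstressed chromatin for H4 and acetylated H4, 5′ intergenic probes on the left and ORF probes on the right, with 1 point per array, bars at the mean and whiskers of 1 SD (n = 3). The 5′ probes of FMP45 and YNL194C lie between -1.07 and -0.70 on every array, whereas those of SUR7 and PUN1 lie near or above 0.

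The same question asked through genomic DNA gave similar sizes. At the FMP45 5′ probe H4 was at 0.38, 0.48 and 0.16 at 30°C and at -0.60, -0.38 and -0.51 at 39°C, without overlap. The difference of -0.84 (SE 0.14) passed (adjusted p = 0.0392) where 0.307% of probes did, and it was 1 of the 12. It did not pass without array 2 or array 3 (0.477 and 0.522), nor with the set as a block (0.081). At the YNL194C 5′ probe H4 went from -0.02 ± 0.09 to -0.57 ± 0.20 without overlap, which did not pass (adjusted p = 0.178). In all 4 of the 12 probes did not overlap, among them the LSP1 ORF (-0.25) and the SUR7 5′ probe, which rose (0.12). How many of all probes separate in this way was not counted. Acetylated H4 against genomic DNA fell at YNL194C by 1.23 (SE 0.21, adjusted p = 0.00656) and at FMP45 by 0.87 (SE 0.21, adjusted p = 0.0344), 2 of 12 probes against 4.94% of all. Both calls were lost without the first array (0.0841 and 0.219), and that of FMP45 also without the third (0.101). Acetylated H4 per H4 was called at 0 of the 12 probes and at 0.0614% of all (1 of the 12 at an unadjusted p under 0.05, limma). Its change was 0.10 (SE 0.16) at the FMP45 and -0.03 (SE 0.15) at the YNL194C 5′ probe.

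The chromatin time course showed when H4 fell at the 5′ probe of FMP45. In wild-type cells H4 there lay between -0.22 and 0.40 on all 14 arrays from T0 to T60. It was at -2.02, -1.22 and -1.07 at T300 and at -0.95, -0.51 and -1.71 at T900, below every earlier array. The fall from T0 was 3.14-fold at T300 and 2.41-fold at T900 (F test over 6 times, adjusted p = 1.18e-05, where 0.346% of probes passed). Without set 1 the adjusted p was 0.0865. The YNL194C probe went from -0.40 and -0.34 at T0 to -0.91, -1.19 and -1.54 at T300 and -0.90, -0.80 and -1.15 at T900 (adjusted p = 0.0894, and 0.000764 with the set as a block). None of the other 10 probes passed, among them the LSP1 ORF, at -1.31, -0.97 and -1.57 at T300 against -0.45 and -0.62 at T0 (adjusted p = 0.667).

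In snf2 deletion cells H4 at the FMP45 probe was at 0.34 and 0.21 at T0, 0.10, 0.05 and -0.24 at T300, and 0.11, 0.04 and -0.15 at T900. At T300 and T900 the strains did not overlap. No member was called in the deletion, where 0.023% of all probes were, and 1 of the 12 had an unadjusted p under 0.05. The strain difference passed nowhere over all times (0% of 13020 probes by limma, 119 at an unadjusted p under 0.05), and the adjusted p at the FMP45 probe was 0.553. At T300 alone its change from T0 differed by 1.35 between the strains (adjusted p = 0.999, 0% called, 183 unadjusted), and at T900 by 0.99 (adjusted p = 1, 0% called, 476 unadjusted). Differences of this size at the probe were therefore not called in a course with 2 or 3 arrays per time. At the YNL194C probe the deletion was at -0.10, -0.26 and -0.60 at T300 and at -0.09, -0.08 and -0.20 at T900. At T0 the strains differed at none of the probes (0%, 284 unadjusted, 0 of the 12 members).

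Acetylated H4 at the FMP45 probe fell in wild-type cells from 0.26 and 0.07 at T0 to -0.57, -1.14 and -0.43 at T300 and -0.67, -0.96 and -0.78 at T900. The F test passed (adjusted p = 0.0276, 0.499% of probes called) but not without set 2 or set 3. The YNL194C probe went from -0.53 and -0.21 to -1.41, -1.24 and -1.47 at T900 (adjusted p = 0.0664). It passed without centring (0.00655), with scaled arrays (0.00969), with the set as a block (0.0261) and without set 1 (0.0299). The FMP45 ORF (adjusted p = 0.0962) passed without centring (0.0417), with scaled arrays (0.0256) and with the block (0.0227). In the deletion the FMP45 probe was at 0.63 and 0.74 at T0, -0.32, 1.35 and 1.16 at T300, and 1.05 and 1.26 at T900. The low value at T300 is that of set 1, the set with wild-type genomic DNA as reference. No member was called in the deletion (0.499% of all probes, 1 of the 12 at an unadjusted p under 0.05). The strain difference over all times had an adjusted p of 0.0783 at the FMP45 probe, with 0.023% of all probes and 0 of 12 members called and 3 of 12 at an unadjusted p under 0.05. It passed without centring (0.00846), with scaled arrays (0.0224), with the set as a block (0.0366) and without set 1 (0.0357). At T300 alone and at T900 alone no probe was called (0% each, 856 and 394 unadjusted), with differences of 0.92 and 1.43 at the FMP45 probe. At T0, 0.998% of probes and 0 of the 12 differed between the strains (6 of 12 unadjusted). Of the 12, 11 were higher in the deletion, by up to 0.96 at the YNL194C 5′ probe (adjusted p = 0.168, and 0.0305 when set 1, which has no T0 array, was left out of the shared spread). Over all probes the median difference was 0.08, and of the 130 called 123 were higher and 7 lower. That direction was therefore not particular to the members, and the share of all probes higher was not counted. With the set as a block the SUR7 5′ probe, 0.80 higher, passed (0.0176, against 0.1). Strain and labelled reference cannot be told apart in sets 2 and 3.

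**Figure D4:**
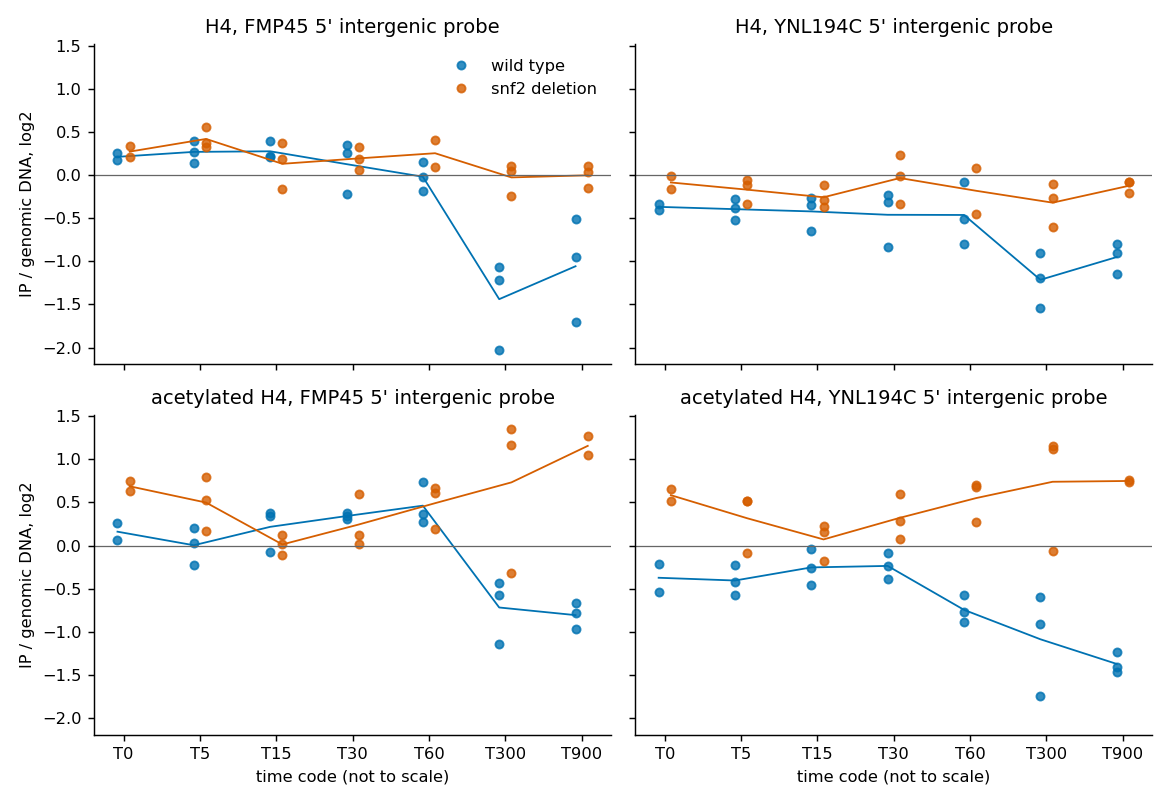
The panels plot log2 ratios of H4 (top) and acetylated H4 (bottom) to genomic DNA at the 5′ probes of FMP45 and YNL194C against the time code (not to scale), with 1 point per array and lines through the means. Wild-type values of H4, and of acetylated H4 at FMP45, drop between T60 and T300, to -2.02 at the lowest for H4 at FMP45. Acetylated H4 at YNL194C is already lower at T60 (mean -0.74) than at T30 (-0.24). The deletion arrays at T300 lie above the wild-type ones in all panels. At T0 they already do so in all panels except H4 at FMP45, where the strains overlap.

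Snf2 was low at these 2 probes before heat shock. In unstressed cells the FMP45 5′ probe was at -0.60, -1.34 and -0.32 relative to the array median (-0.75 ± 0.53, SD, n = 3, adjusted p = 0.039), and the YNL194C 5′ probe at -0.64, -1.04 and -0.84 (-0.84 ± 0.20, adjusted p = 0.0247). They were the 2 of 12 probes called, against 16.9% of all probes. Of intergenic probes 99.8% had a higher mean than the FMP45 one. Both calls were lost without set 1 or set 2 (adjusted p between 0.063 and 0.319), and that of FMP45 without centring (0.0519) and without heat shock set 5, which shares the spread (0.0525). The YNL194C ORF ranged from -0.40 to 1.72.

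After heat shock 4 of the 12 probes were called, all above the array median, where 21.2% of all probes were called in either direction (1660 higher, 1098 lower). The PIL1 5′ probe was at 0.45, 0.56, 0.79, 1.02 and 0.53 (0.67 ± 0.23, SD, n = 5, adjusted p = 0.00398) and the PIL1 ORF at 0.34, 0.51, 0.88, 0.66 and 0.59 (0.60 ± 0.20, adjusted p = 0.00551). The FMP45 5′ probe was at 0.17, 0.36, 0.94, 1.05 and 0.58 (0.62 ± 0.37, adjusted p = 0.026), and its ORF averaged 0.51 ± 0.37 (adjusted p = 0.028). All 5 arrays were above 0 for these 4 probes. The FMP45 5′ call was lost without set 3, 4 or 5 (0.0518 to 0.0968) and the ORF call without set 1, 3 or 4 (0.0775 to 0.113). The LSP1 ORF (0.30 ± 0.15, adjusted p = 0.0523) passed without centring (0.0419) and with scaled arrays (0.0313). The YNL194C 5′ probe was at -0.23, -0.12, 0.87, 0.64 and 0.11 and did not pass (adjusted p = 0.264).

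From 30°C to heat shock the 5′ probes of FMP45, YNL194C and PIL1 moved up without overlap between the groups, but none was called. The differences were 1.37 (SE 0.27, adjusted p = 0.0969), 1.09 (SE 0.26, adjusted p = 0.122) and 0.62 (SE 0.18, adjusted p = 0.163). With the set number as a block, which treats the first 3 sets as pairs, the FMP45 difference was 1.24 (adjusted p = 0.292). Of all probes 0.0614% passed, all 8 of them higher, and 4 of the 12 member probes had an unadjusted p under 0.05. The other 9 member probes overlapped between the groups. How many of all probes separate without overlap was not counted.

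**Figure D5:**
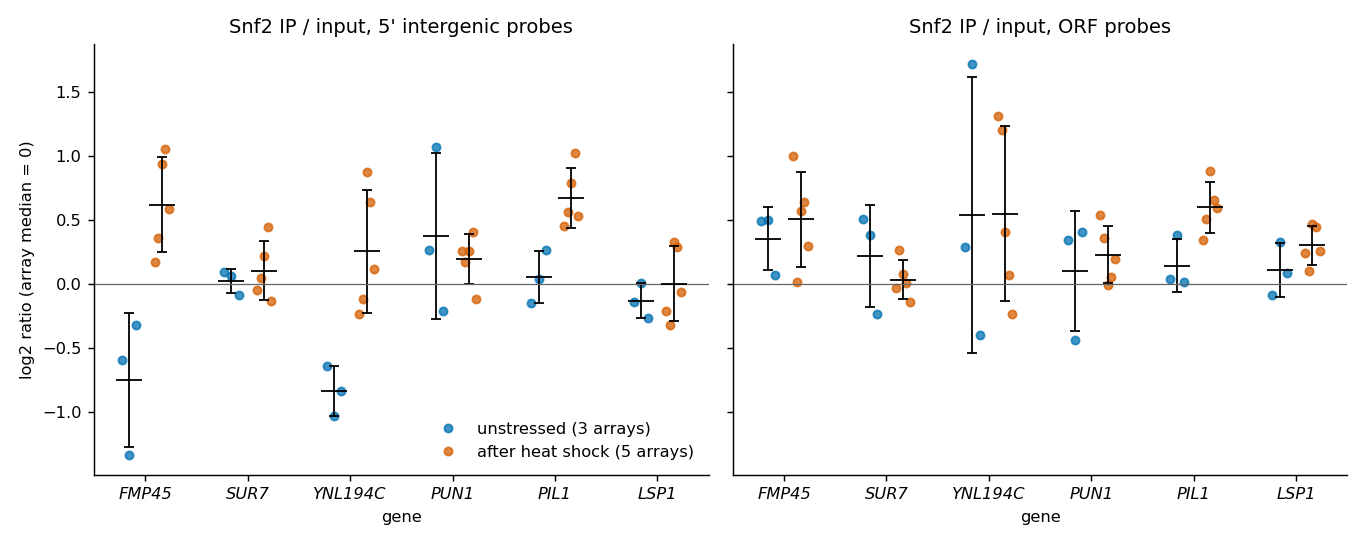
Log2 ratios of Snf2 immunoprecipitate to input DNA are plotted for the 5′ intergenic and ORF probes, with 1 point per array, bars at the mean and whiskers of 1 SD, for 3 unstressed and 5 heat shock arrays. At the 5′ probes of FMP45, YNL194C and PIL1 every heat shock array lies above every unstressed one.

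In stationary phase the FMP45 5′ probe went the other way for acetylated H4. On the direct arrays of acetylated H4, whose labels name the tag antibody, it was at 1.13, 1.04 and 1.75, a 2.48-fold rise (1.31 ± 0.39, SD, n = 3, adjusted p = 0.0145), and 0.345% of intergenic probes had a higher mean. H4 there was at 0.08, 0.55 and 0.10 and did not pass (adjusted p = 0.301). The ratio of acetylated H4 to H4 went from -0.06, 0.00 and -0.02 in log phase to 1.08, 1.39 and 1.07 in stationary phase, a difference of 1.21 (SE 0.15, adjusted p = 0.0329) and 1 of 12 probes called against 4.91% of all. It did not pass without any 1 of the sets (0.0958 to 0.121) or with scaled arrays (0.0831). Against genomic DNA acetylated H4 went from 0.32, 0.96 and 0.53 to 1.37, 1.60 and 1.64, a difference of 0.93 that was not called (adjusted p = 0.101). FMP45 mRNA was at -0.21 ± 0.33 in stationary phase.

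Acetylated H4 fell over the ORFs of YNL194C (-1.07, -0.72 and -2.19, adjusted p = 0.035) and LSP1 (-0.43, -0.66 and -0.99, adjusted p = 0.0329) on these direct stationary arrays, whose labels name the tag antibody. Whether that is an error in the labels is not known. With the FMP45 5′ probe this made 3 of 12, against 20.6% of all probes. Both ORF calls were lost without set 3 (0.0587 and 0.0978), that of YNL194C also without set 1 (0.0532) and that of LSP1 without set 2 (0.103). The FMP45 ORF was at -0.97, -0.24 and -1.39 (adjusted p = 0.0562), and passed without centring (0.0409), with scaled arrays (0.0395) and without set 2 (0.0411). Against genomic DNA the stationary minus log-phase difference was -0.87 at the LSP1 ORF (adjusted p = 0.172) but 0.91 at the YNL194C ORF (adjusted p = 0.129), the opposite sign to the direct arrays. For acetylated H4 per H4 the difference was -0.60 at the LSP1 ORF and -1.28 at the YNL194C ORF, neither of them called. The cause of the conflict at YNL194C was not tested. H4 itself was called at 0 of 12 probes on the direct arrays (2.96% of all, 5 of the 12 unadjusted), the farthest being the YNL194C ORF at -0.70 ± 0.50 (adjusted p = 0.117). Neither H4 nor acetylated H4 against genomic DNA gave any call in stationary phase (0% and 0% of 13027 probes by limma, with 1469 and 2342 at an unadjusted p under 0.05, and 0 and 4 of the 12).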

How the data were processed

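The deposited table holds log2 ratios of Cy5 to Cy3 for 13029 probes on 167 arrays, with stressed, immunoprecipitated or mutant material in Cy5 per the labels. The base follows from the low ratios: 2 to the power of a value came out as a whole thousandth for 100% of ratios below 0.5 (tolerance 0.02 of a thousandth). How the authors scanned, background-corrected, scaled or centred the arrays is stated neither in the labels nor in the file header. No column was left out and no 2 arrays were identical. As deposited, array medians ran from -0.14 to 0.26, and each array was centred on its median here. Precision is limited by the number of arrays. H4 repeats 2-a and 2-b of set 2 at T900 in the deletion were averaged.

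Tests were two-sided and used limma 3.58.1 (lmFit, eBayes; R 4.3.3) over all probes (chromatin) or ORF probes (expression) with values on at least 2 arrays of a group, and Benjamini-Hochberg adjusted p under 0.05 as the threshold. Direct ratios were tested against 0, states by the difference of group means, time courses by F over differences from T0 with 1 spread per course, and strains by interaction contrasts. The value given for an F test is the mean difference from T0. Only the tests of direct heat shock mRNA, the Snf2 difference, the wild-type H4 course and the mRNA strain difference were tried on simulated data. Names come from RefSeq (5777 of 6269 ORF probes).

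The members, gene lists and tests were chosen with earlier results of these data known. Named genes were the members, the genes across their shared probes, the 4 largest called changes per list in each mRNA comparison, the 3 probes nearest in profile to each member, and the deleted genes. Deviations of same-numbered Snf2 arrays from their group means correlated at 0.12, 0.19 and 0.11. No other comparison with 3 shared sets had every correlation above 0.1. In the H4 course the median correlation per set was 0.29, 0.38 and 0.40, but the lowest were -0.15, -0.06 and 0.10. In the acetylated H4 course the medians were 0.43, 0.26 and 0.05, and the lowest 0.04, -0.13 and -0.48. Arrays with different set numbers were not compared in this way, so whether set numbers pair the samples was not settled. The main tests left the set out. Alternatives were no centring, scaling of arrays to a common median absolute deviation, a robust prior, probes measured on every array, the set as a block, and each set left out. No promoter or protein sequence was used here.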

Additional observations from a re-analysis of the deposited data

Results flagged for a closer look

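The FMP45 mRNA change at 900 s on the array labelled snf2 deletion differed by -2.13 on the log2 scale from that in wild type (limma, adjusted p = 0.0495). That time was tested alone after the data were seen, the test over all times gave 0.118, and the deletion had 1 array there, so that its own spread does not enter the p. The SNF2 probe did not tell the mRNA arrays of the strains apart. At the points that follow, every wild-type array of a chromatin course moved one way from the T0 mean and every deletion array the other. The values are deletion minus wild type. All member probes were searched at every time after T0 in both courses, and the share of all probes that behave so was not counted. The values at T300 and T900 are those of acetylated H4. The FMP45 5′ probe at T900 differed by 1.43 between the strains (adjusted p = 1), and the YNL194C 5′ probe at T900 by 1.16 (adjusted p = 1). The SUR7 5′ probe differed by -0.47 at T300 (adjusted p = 0.753) and by -0.51 at T900 (adjusted p = 1). At the earlier times the strain difference was not tested at single times. For acetylated H4 it was -0.62 at T30 and -0.50 at T60 at the FMP45 5′ probe, -0.45 at T15 and -0.24 at T30 over the FMP45 ORF, -0.52 at T15 at the PIL1 5′ probe and 0.82 at T5 over the YNL194C ORF. For H4 it was 0.50 at T5 and 0.81 at T60 over the YNL194C ORF. The acetylated H4 deletion arrays at T900 all come from sets 2 and 3, whose labelled reference is DNA of the deletion strain. No member probe had an array far from the others among the 5 Snf2 arrays after heat shock, the only group large enough for that rule.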

How the results depend on the processing

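Counts of members called kept within 1.5 times of the reported value in 115 of 132 comparisons of alternatives other than leaving out a set, and in 54 of 75 that left out a set. No called value changed sign in the comparisons not tested by F. For those tested by F a change of sign was not recorded. Leaving out 1 set at a time gave 3 to 5 called for mRNA in heat shock, 2 to 6 for H4 and 4 to 7 for acetylated H4 on the direct heat arrays, and 1 to 3 for acetylated H4 in stationary phase. It gave 0 to 1 and 0 to 2 for H4 and acetylated H4 against genomic DNA in heat shock, 0 for acetylated H4 per H4 in stationary phase, 0 to 2 and 2 to 4 for Snf2 before and after heat shock, and 0 to 1 (H4) and 0 to 2 (acetylated H4) in the wild-type time courses. The strain difference and the T0 difference of acetylated H4 gave 0 to 1 each. Without centring the counts were 1 for unstressed Snf2, 1 for mRNA in the deletion course, 3 for acetylated H4 in the wild-type course and 1 for its strain difference. With scaled arrays they were 0 for acetylated H4 per H4 in stationary phase, 0 for mRNA in the deletion course, 1 for mRNA at T0, 3 for acetylated H4 in the wild-type course and 1 for its strain difference. At 900 s alone the mRNA strain difference had 1 call. With the set as a replicate block the counts were 0 for H4 against genomic DNA in heat shock, 5, 2 and 3 for mRNA, H4 and acetylated H4 in the wild-type courses, 1 for the acetylated H4 strain difference and 1 at T0 (for mRNA over T0 and T900 alone, the times with set numbers), and the block moved no other count by over 1.5 times. The acetylated H4 arrays at T0 correlated at -0.10 between same-numbered sets, and the crossed pairing also gave 1 call. The mRNA course was not refitted without a set, since no duplicate array would remain. The causes of these changes were not tested. With 3 arrays per group, calls near the threshold turn on single arrays, and unstressed levels are limited by an unknown signal over background.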
